A study of Homo sapiens with 4 samples.

Results

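The zinc finger (ZNF) genes of chromosome 19 that lie in 2 blocks were described by their chromosome contacts. The first block lies in band 19p12 and the second in band 19q13.4, and the members are the ZNF genes that overlap the bins of about 200 kb of a fixed stretch of each band (hg19), whose outer edges are given below. Together they held 136 of the 249 protein-coding genes of chromosome 19 whose symbol starts with ZNF, 37 in 19p12 and 99 in 19q13.4, and there were 516 such genes in the whole genome. The blocks spanned 61 bins, of which 60 had enough listed pairs to be used, out of 249 usable bins of chromosome 19 and 13597 of the genome. The 19p12 block ran from 19787961 to 24600794 (4.81 Mb) and had 24 usable bins, of which 22 overlapped a ZNF gene and 2 did not. Apart from its ZNF genes it overlapped 3 other protein-coding genes. The 19q13.4 block ran from 51987570 to 59128983 (7.14 Mb) and had 36 usable bins, of which 24 overlapped a ZNF gene and 12 did not. It also overlapped 149 other protein-coding genes, among them the SIGLEC, FPR, LILR, KIR and NLRP families of immune genes and the imprinted gene PEG3. Genes that lie in the same bin share the same contact value, so the measured members were bins.

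Most ZNF genes of these blocks encode KRAB zinc finger proteins, which bind DNA through a tandem row of fingers and recruit the corepressor TRIM28 (also called KAP1). Many of them bind transposable elements and direct the histone mark H3K9me3 to them, and the ZNF gene clusters themselves are known to carry H3K9me3 over their finger-coding exons. The clusters grew by repeated local duplication, so neighbouring genes are similar in sequence. The gene of TRIM28 lies in the last bin of the 19q13.4 block.

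Chromosome contacts were read by Hi-C, which ligates and counts DNA ends brought near each other in fixed nuclei, in the human lung fibroblast line IMR90. All cells of the series carried the fusion ER:HRAS G12V, a form of oncogenic RAS that 4-hydroxytamoxifen (4OHT) switches on, from the retroviral vector pLNCX2. They also carried the vector pMSCV miR shHMGA1, whose short hairpin RNA (shA1) lowers HMGA1, an architectural protein that binds AT-rich DNA. Grow-shA1 cells were not treated and OIS-shA1 cells had 6 days of 100 nM 4OHT, which leads to oncogene-induced senescence (OIS). The series held 2 samples of each, pooled into 1 map per condition. The Grow and OIS maps without the hairpin belong to no sample of the series, having been made earlier by the same laboratory, and the control vector of those cells is not given in the sources used here. A difference between a map with shA1 and a map without it is therefore also a difference between data sets, and these cannot be told apart. RAS was overexpressed from a virus, so the maps describe induced and not spontaneous senescence. Hi-C holds no expression, so neither the fibroblast identity nor the loss of HMGA1 could be checked in these files.

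The deposited maps list 1 score per pair of bins, which looks logarithmic and sets the contact of the pair against the average contact of pairs equally far apart. The base of the logarithm is not stated, so differences are given in score units and not as fold changes. With 1 map per condition there was no spread between replicates and no test, and the SD given is over pairs of bins. The files hold no read counts, so the depth behind a score could not be given. The share of the chromosome 19 pairs over 2 Mb apart that a map listed was 91.0% in Grow, 87.5% in Grow-shA1, 75.2% in OIS and 74.8% in OIS-shA1, so both RAS maps were sparser. Means were taken over pairs listed in all 4 maps.

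The similarity of the ZNF genes can be seen in single fingers. One unit of 84 bases from a gene of each block is printed below to show what the clusters are made of, on the coding strand, read from the GRCh37 sequence of the finger-coding exon. In each block the gene with the most fingers was taken. Its unit nearest to the block consensus, the commonest base at each position, was chosen. Capitals mark the codons of the 2 cysteines and 2 histidines that hold the zinc. The ZNF208 unit lies at chr19:22156258-22156341 on the minus strand and the ZNF845 unit at chr19:53856089-53856172 on the plus strand.
ZNF208: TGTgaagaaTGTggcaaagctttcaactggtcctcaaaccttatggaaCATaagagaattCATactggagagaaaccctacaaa
ZNF845: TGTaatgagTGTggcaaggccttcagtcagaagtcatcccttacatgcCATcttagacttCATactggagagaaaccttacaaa
These units, each chosen as nearest to its block consensus, agreed at 60 of 84 bases although their genes lie on different arms. The agreement of other units was not measured. The stretch after the last histidine is the linker between fingers. Only linkers that encode the peptide TGEKP were counted, and only units with such a linker were considered for printing. The most frequent form of these, ACTGGAGAGAAACC, was that of 592 of the 1386 TGEKP linkers found in ZNF genes of chromosome 19. Both units carry it.

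The linker was used as an approximate sequence marker of finger-coding exons, counted on both strands. It also counts copies outside protein-coding genes: a 19p12 bin that overlaps none (chr19:20401563-20599556) held 21. Some ZNF genes lack it, as 16 of the 24 ZNF bins of 19q13.4 held a copy. The usable bins of 19p12 held 307 copies, in 23 of 24 bins, and those of 19q13.4 held 270 copies, in 16 of 36 bins. The 2 blocks thus held 577 of the 1236 copies in the usable bins of the genome, where 1.53% of bins had any. On chromosome 19 outside the blocks 13.8% of bins had a copy. The blocks differed in base composition, with a median GC content of 41.3% in 19p12 and 45.5% in 19q13.4, against 49.6% for the other bins of chromosome 19 and 39.7% for the genome. The number of fingers per gene was alike, with a median of 13 in 19p12 and 12 in 19q13.4. The genes with the most fingers among those listed lay in 19p12: ZNF208 had 36 and ZNF91, a repressor of SVA retrotransposons, had 31.

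The 19p12 block was the more compact of the blocks in every map. Over pairs of its own bins more than 2 Mb apart (96 pairs, all listed in all maps) the mean score was 2.15 in Grow (SD 0.48), 1.96 in Grow-shA1 (SD 0.51), 2.49 in OIS (SD 0.52) and 2.28 in OIS-shA1 (SD 0.71). Pairs of chromosome 19 bins outside the blocks at 2 to 5 Mb had means of -0.011, -0.014, -0.16 and -0.13 in the same order. The 19q13.4 block was intermediate, with 0.73 in Grow, 0.75 in Grow-shA1, 0.80 in OIS and 0.81 in OIS-shA1 (333 pairs, SD 0.72 to 0.97). So distal contact within 19p12 stood highest in OIS and lowest in Grow-shA1, whereas the 4 maps of 19q13.4 differed by far less than the SD over its pairs.

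**Figure D1:**
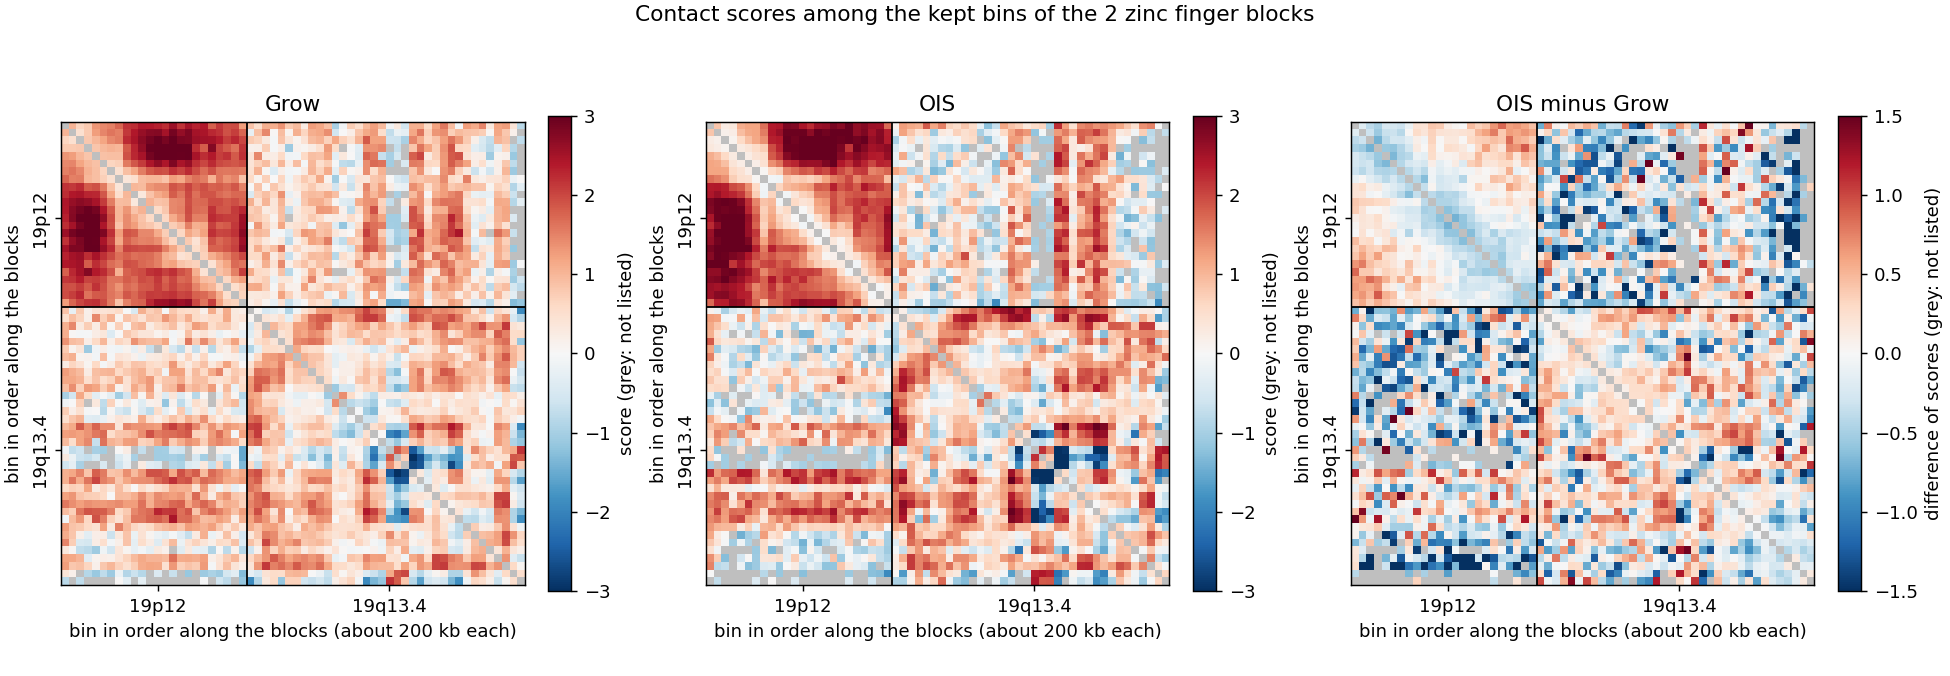
Contact scores between the 60 usable bins of the 2 blocks in Grow, in OIS and as their difference, with the bins in order along both axes and black lines between the blocks. The 19p12 square is dark red away from its diagonal in both maps, the 19q13.4 square is mixed, and the rectangle between the blocks shows stripes at some 19q13.4 bins.

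Upon RAS induction the distal contact within 19p12 was higher by 0.33 score units in OIS than in Grow (SD over pairs 0.23), with 92 of 96 pairs higher. Across the genome 44.8% of pairs 2 to 5 Mb apart were higher and their mean difference was -0.16 (SD 0.63, 185240 pairs). With HMGA1 lowered in both states, OIS-shA1 exceeded Grow-shA1 by 0.32, with 83 of 96 pairs higher against 47.6% of genome pairs. All 18 bins with at least 5 such pairs were higher in OIS than in Grow, and 17 of 18 in OIS-shA1 than in Grow-shA1. The difference of these differences (the interaction) was -0.011. The score of the OIS map was also more widely spread, and dividing each score by the SD of chromosome 19 pairs of its map at the same distance turned the OIS-minus-Grow difference from 0.33 to -0.13. The direction of this result thus depends on the scale on which the maps are compared.

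The shA1 maps had lower distal contact within 19p12 in both states. OIS-shA1 minus OIS was -0.21, with 27 of 96 pairs higher against 51.2% of genome pairs, and Grow-shA1 minus Grow was -0.20, with 11 of 96 pairs higher against 45.3%. Among the 18 bins, 2 were higher in the former comparison and 0 in the latter. Each of these differences sets the new data set against the earlier one. After division by the SD at the same distance they were -0.036 and -0.21, and the interaction was 0.17, so their likeness in both states also depends on the scale.

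Within 19p12 the difference between OIS and Grow ran in opposite directions at short and long distance. Pairs up to 0.5 Mb apart (45 pairs) had a mean score of 0.77 in Grow, 0.72 in Grow-shA1, 0.32 in OIS and 0.44 in OIS-shA1. At 3 to 5 Mb (42 pairs) the means were 2.03, 1.81, 2.49 and 2.14. The nearest neighbours were thus lowest in OIS and the farthest pairs highest in OIS. From the nearest to the farthest class the OIS-minus-Grow difference was -0.45, -0.27, -0.012, 0.23 and 0.46, with limits between the classes at 0.5, 1, 2 and 3 Mb. The number of pairs higher in OIS was 1 of 45, 2 of 51, 40 of 84, 52 of 54 and 40 of 42. With shA1 the same classes gave -0.29, -0.12, 0.14, 0.32 and 0.33. This turn with distance was not seen outside the blocks, where the OIS-minus-Grow difference was 0.05 up to 0.5 Mb (61.3% of 354 pairs higher, and 59.6% higher with shA1) and between -0.02 and -0.16 farther apart. In the farther classes up to 5 Mb, 216 of 429, 354 of 813, 289 of 723 and 545 of 1249 pairs outside the blocks were higher in OIS. In 19q13.4 the OIS-minus-Grow differences of the same classes were 0.0093, -0.068, 0.034, 0.18 and 0.030. Scores are set against the average of their own distance, so these differences are relative to the rest of each map.

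**Figure D2:**
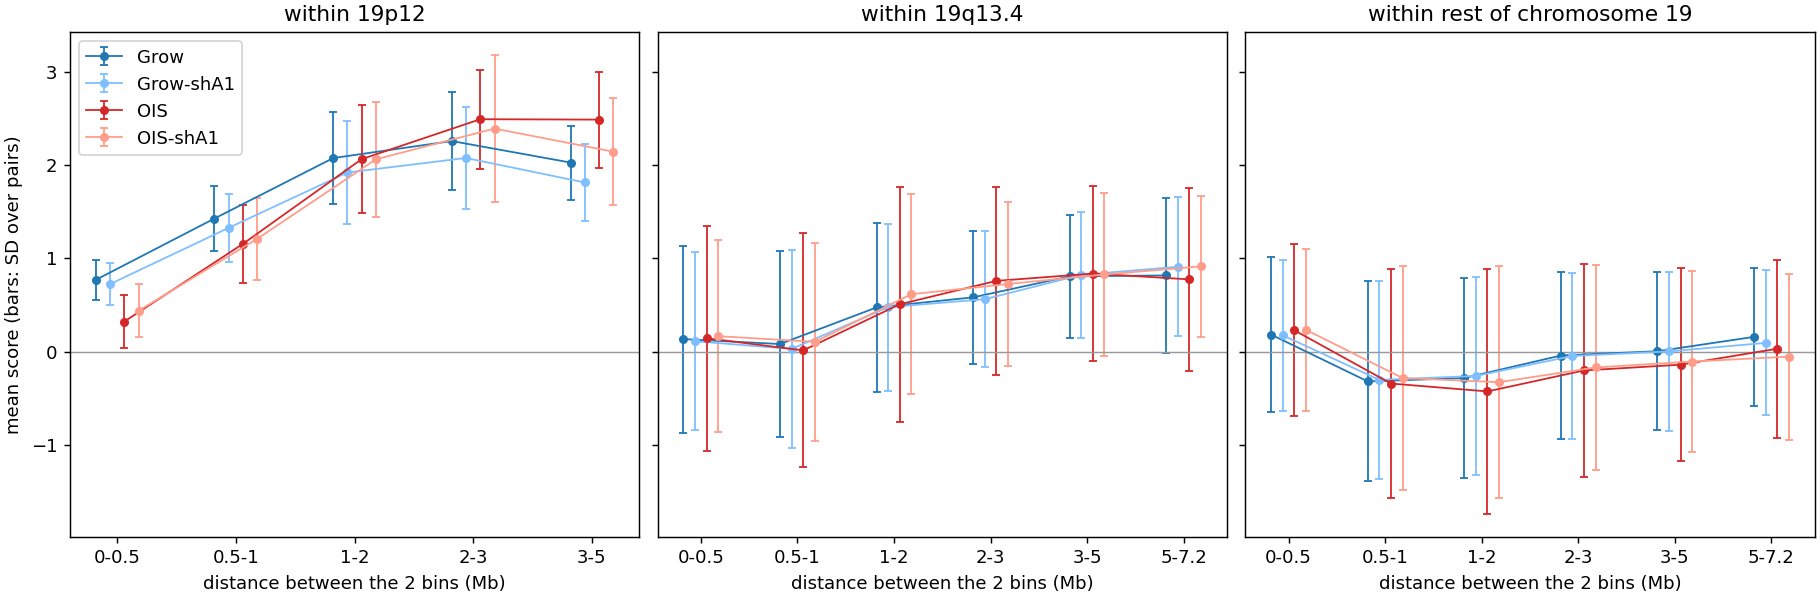
Mean score against the distance between bins (Mb) within 19p12, within 19q13.4 and among the other bins of chromosome 19, for the 4 maps, with bars of 1 SD over pairs. In 19p12 the OIS points lie below the Grow points up to 1 Mb and above them beyond 2 Mb.

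The bins of 19p12 differed in the level they reached with their own block. Over pairs beyond 2 Mb, bin means in Grow ran from 1.30 to 2.93 with a median of 2.15 (24 bins). Only 18 of these bins had at least 5 such pairs. The bin of ZNF98 (chr19:22597702-22799956) had the highest value in Grow, though over 4 pairs. It was at 2.93 in Grow, 2.74 in Grow-shA1, 3.03 in OIS and 3.26 in OIS-shA1. The bin of ZNF430, ZNF714 and ZNF431 had the lowest, 1.30 in Grow, 1.21 in Grow-shA1, 1.59 in OIS and 1.20 in OIS-shA1. The ZNF98 bin exceeded the latter bin in each map.

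The listed ZNF genes of 19p12 shared the RAS difference of their block. ZNF93 and ZNF90, in 1 bin with ZNF682, had a mean of 2.42 in Grow and 2.86 in OIS over 13 pairs. ZNF93 represses L1 retrotransposons. ZNF85, in a bin of its own, stood at 1.76 in Grow and 1.88 in OIS (8 pairs), one of the smaller differences. ZNF43 and ZNF208 shared a bin that was at 2.37 in Grow and 2.55 in OIS, though over 4 pairs. ZNF254, near the centromeric end, was at 1.86 in Grow and 2.21 in OIS over 12 pairs. In these examples every OIS value was above its Grow value, as it was in all 24 bins, by 0.099 to 0.52. Only 18 of the 24 had at least 5 pairs. Of genome pairs 2 to 5 Mb apart, 44.8% were higher in OIS than in Grow. This direction depends on the scale, since the mean difference of the block was -0.13 after division by the SD at the same distance.

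Contact between the blocks was weaker than distal contact within 19p12, close to distal contact within 19q13.4 in Grow, and above that of other pairs equally far apart. Over the 710 of 864 pairs listed in all maps (27.6 to 39.2 Mb apart, across the centromere) the mean score was 0.70 in Grow (SD 0.66), 0.59 in Grow-shA1 (SD 0.68), 0.41 in OIS (SD 0.93) and 0.38 in OIS-shA1 (SD 0.83). Pairs of other chromosome 19 bins within the same span of distance (1568 pairs) averaged close to 0 in Grow, -0.054 in Grow-shA1, -0.065 in OIS and -0.058 in OIS-shA1. Genome pairs in this span (417290 pairs) averaged higher, at 0.25 in Grow, 0.19 in Grow-shA1, 0.19 in OIS and 0.15 in OIS-shA1. The blocks therefore stayed above these 2 sets of pairs in each map, and both RAS maps were below both growing maps. The level was not particular to the 2 blocks. With ZNF bins outside the blocks, over other distances, 19p12 was at 0.75 in Grow and 19q13.4 at 0.71.

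**Figure D3:**
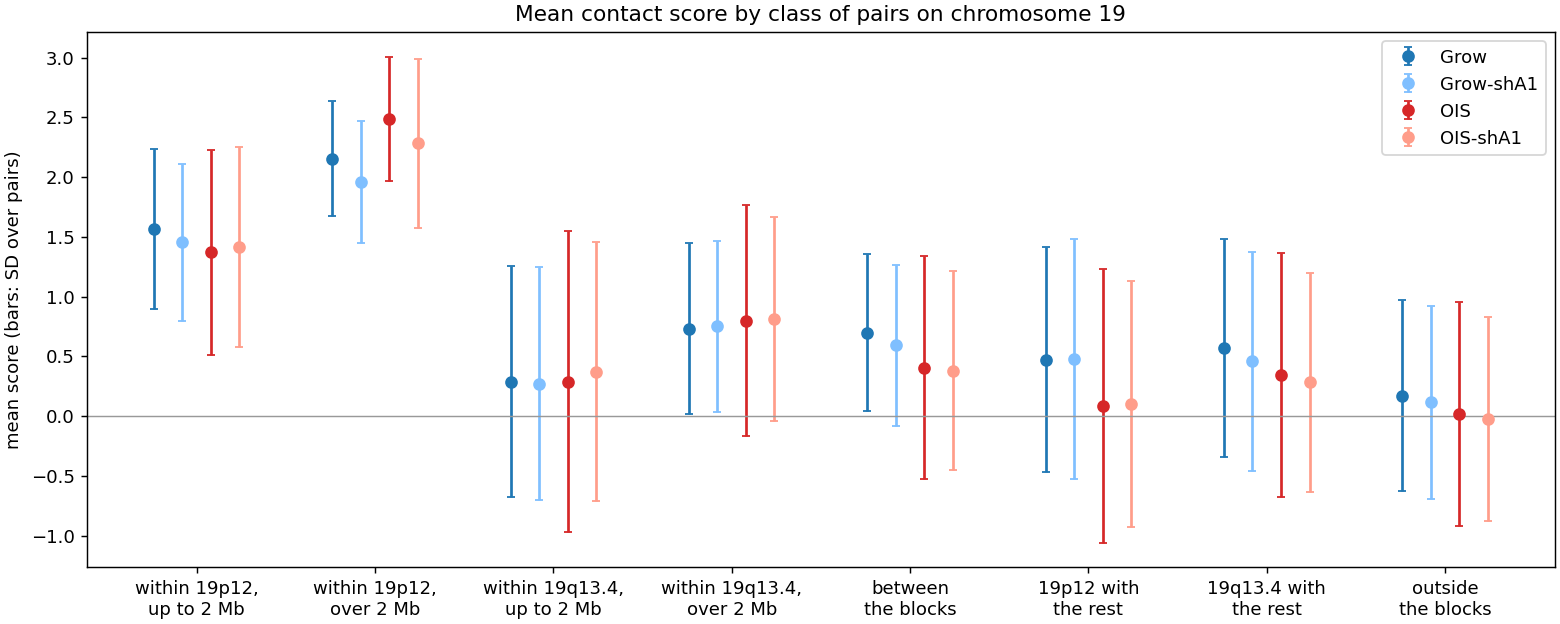
Mean score of each class of chromosome 19 pairs in the 4 maps, with bars of 1 SD over pairs. The RAS maps lie above the growing maps in 19p12 pairs over 2 Mb apart, and below them between the blocks and for both blocks with the rest of the chromosome.

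In contrast to the contact within 19p12, the contact between the blocks was lower in the RAS maps. OIS minus Grow was -0.29 (SD over pairs 0.69), with 249 of 710 pairs higher (35.1%), against 46.9% of all genome pairs at this distance. OIS-shA1 minus Grow-shA1 was -0.21, with 280 of 710 pairs higher (39.4%), against 48.1%. The interaction was 0.080. The hairpin comparisons gave smaller values: OIS-shA1 minus OIS was -0.025 with 346 pairs higher (48.7%, against 47.4% of genome pairs), and Grow-shA1 minus Grow was -0.11 with 285 pairs higher (40.1%, against 44.7%). The former share is close to that of the genome. All 4 means are smaller than the SD over pairs.

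By bin, 22 of the 24 bins of 19p12 had less contact with 19q13.4 in OIS than in Grow, and 24 of 24 had less in OIS-shA1 than in Grow-shA1. Among all 200 bins of chromosome 19 that could be paired with 19q13.4, 16.5% were higher in OIS and 28% with shA1 in both states, against 2 and 0 of the 24 members. With the hairpin, 12 of 24 bins were higher in OIS-shA1 than in OIS (41% of all bins) and 1 of 24 in Grow-shA1 than in Grow (25% of all bins). The low counts of the members thus stand beside low counts for most of the chromosome.

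The bin with the most contact across the centromere in Grow was again that of ZNF98, at 1.12 in Grow, 1.01 in Grow-shA1, 0.63 in OIS and 0.79 in OIS-shA1 (27 pairs). Next came the bin of ZNF723 and ZNF728, at 0.92, 0.91, 0.35 and 0.58, and a bin with no ZNF gene start (chr19:23594249-23800090) at 0.87, 0.77, 0.69 and 0.58. These 3 bins were lower in each RAS map than in either growing map. The lowest were the end bin at chr19:24399937-24599962, which has no gene, at 0.16, -0.067, -0.26 and -0.29, the bin of ZNF430, ZNF714 and ZNF431, at 0.43, 0.42, 0.24 and 0.37, and the ZNF254 bin, at 0.45, 0.31, 0.24 and 0.17.

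The bin of ZNF257 and ZNF676 had the largest OIS-minus-Grow difference of 19p12, -0.60, from 0.82 to 0.22, and stood at 0.80 in Grow-shA1 and 0.38 in OIS-shA1. It was followed by the bins of ZNF723 and ZNF728 (-0.57) and ZNF98 (-0.49). Only 2 bins were higher in OIS. The bin of ZNF724 and ZNF91 was at 0.81 in Grow, 0.76 in Grow-shA1, 0.87 in OIS and 0.32 in OIS-shA1 (32 pairs). The first bin of the block, with ZNF14, ZNF506 and ZNF253, was at 0.75 in Grow, 0.66 in Grow-shA1, 0.80 in OIS and 0.46 in OIS-shA1. Both of these were lowest in OIS-shA1.

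The other listed genes of 19p12 lay between these ends. The bin of ZNF93 and ZNF90 was at 0.71 in Grow, 0.69 in Grow-shA1, 0.56 in OIS and 0.39 in OIS-shA1, and that of ZNF85 at 0.573, 0.414, 0.205 and 0.211. The bin of ZNF43 and ZNF208 was at 0.775, 0.749, 0.490 and 0.537, that of ZNF100 at 0.736, 0.636, 0.479 and 0.427, and that of ZNF675 and ZNF681 at 0.699, 0.426, 0.404 and 0.371. Each of these bins was lower in OIS than in Grow and in OIS-shA1 than in Grow-shA1.

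The bins of 19q13.4 were far less uniform in their contact with 19p12. In Grow their means ran from -0.41 to 1.48 over the 35 bins with at least 5 pairs, against 0.16 to 1.12 in 19p12. The highest was the bin of PEG3 and ZIM2 (chr19:57198951-57400915), imprinted genes of the zinc finger type, at 1.48 in Grow, 1.13 in Grow-shA1, 1.79 in OIS and 1.36 in OIS-shA1. The bin of NLRP13, NLRP8 and NLRP5 reached 1.48, 1.29, 1.69 and 1.43, and that of NLRP9, NLRP11 and NLRP4 (chr19:56212317-56396781) reached 1.37, 1.22, 1.77 and 1.51. Within 19q13.4, the 3 bins with the most contact with 19p12 in Grow were therefore bins where no ZNF gene starts. All 3 were highest in OIS. Bins outside 19q13.4 were not part of this ranking.

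The lowest bins lay in gene-dense stretches and had few listed pairs. The bin of ZNF132, ZNF497 and ZNF584 was at -0.41, -0.80, -1.03 and -0.85 over 5 pairs. The bin from PPP1R12C to HSPBP1, with no ZNF gene, was at -0.40, -0.57, -0.47 and -0.30 over 10 pairs, and that of ZNF628 at -0.34, -0.69, -0.46 and -0.47 over 7 pairs. The bin of TRIM28 and MZF1 had 1 pair, and its contact with 19p12 was not described further.

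The ZNF bins and the other bins of 19q13.4 can be set side by side. The 24 ZNF bins had a median score with 19p12 of 0.61 in Grow, 0.49 in Grow-shA1, -0.11 in OIS and 0.065 in OIS-shA1. The 11 bins without a ZNF gene had 1.03, 0.82, 0.70 and 0.75. In OIS 21 of 24 ZNF bins and 8 of 11 other bins were below Grow, and with shA1 in both states 19 of 24 and 6 of 11 were. The ranges of the groups overlapped throughout, from -0.41 to 1.48 and from -0.40 to 1.48 in Grow. Among all 164 bins of chromosome 19 that could be paired with 19p12, 12.8% were higher in OIS than in Grow, against 6 of 35 bins of 19q13.4, and 16.5% in OIS-shA1 than in Grow-shA1, against 10 of 35. For the hairpin, 57.9% of all bins and 16 of 35 members were higher in OIS-shA1 than in OIS, and 47% and 6 of 35 in Grow-shA1 than in Grow.

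Contact by family followed the position along the block. The 4 bins with LILR or KIR genes, which encode receptors of immune cells, had a median of 0.86 in Grow and 0.52 in OIS, and 4 of 4 were lower in OIS. Within them the LILRA2 and LILRB1 bin (chr19:55009194-55200111) differed little between maps, at 1.36 in Grow, 1.25 in Grow-shA1, 1.24 in OIS and 1.24 in OIS-shA1. The KIR bin was at 1.25, 1.11, 0.89 and 0.75. The other LILR bins were lower: that of LILRB3 and LILRA6 was at -0.041, 0.038, -0.47 and -0.24. That of LILRA5 and LILRA4 was at 0.47, 0.63, 0.16 and 0.31. The 4 bins with NLRP genes, sensors of innate immunity, some of which act in the oocyte, had medians of 1.20 in Grow and 1.19 in OIS, with 2 bins higher and 2 lower. The NLRP12 bin was the lowest of these in Grow, at -0.23 in Grow, -0.17 in Grow-shA1, -0.47 in OIS and -0.19 in OIS-shA1. The 2 bins with SIGLEC or FPR genes, also receptors of immune cells, went from 0.50 in Grow to -0.11 in OIS and from 0.72 to 0.70.

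The bins that were higher in OIS than in Grow lay together. A run of 8 bins from NLRP9 to ZNF264 (chr19:56212317-57800953), chosen after the values were seen, held all 6 of the 19q13.4 bins that were higher. Its bin means had a median of 1.28 in Grow, 1.08 in Grow-shA1, 1.38 in OIS and 1.10 in OIS-shA1. By these medians the OIS map was the highest and both hairpin maps were the lowest. The run was drawn around bins that were higher in OIS, so the high place of OIS comes with that choice. In OIS-shA1 7 of 8 bins were lower than in OIS, whereas 57.9% of 164 chromosome 19 bins were higher. This comparison uses the same OIS values as the choice of the run, so nothing is concluded from it. Of its 4 bins where ZNF genes start, 2 were higher in OIS than in Grow: the bin of ZNF582, ZNF583 and ZNF667 was at 1.01, 0.98, 1.32 and 0.96, and that of ZNF471 and ZFP28 at 1.33, 1.13, 1.35 and 1.04. The bin of ZNF264 was lower in OIS, at 0.85, 0.50, 0.73 and 0.57, and that of ZNF787 and ZNF444 was lowest in OIS, at 0.56, 0.68, 0.28 and 0.34. When scores were divided by the SD at the same distance, the mean OIS-minus-Grow difference of the run turned from 0.13 to -0.019.

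**Figure D4:**
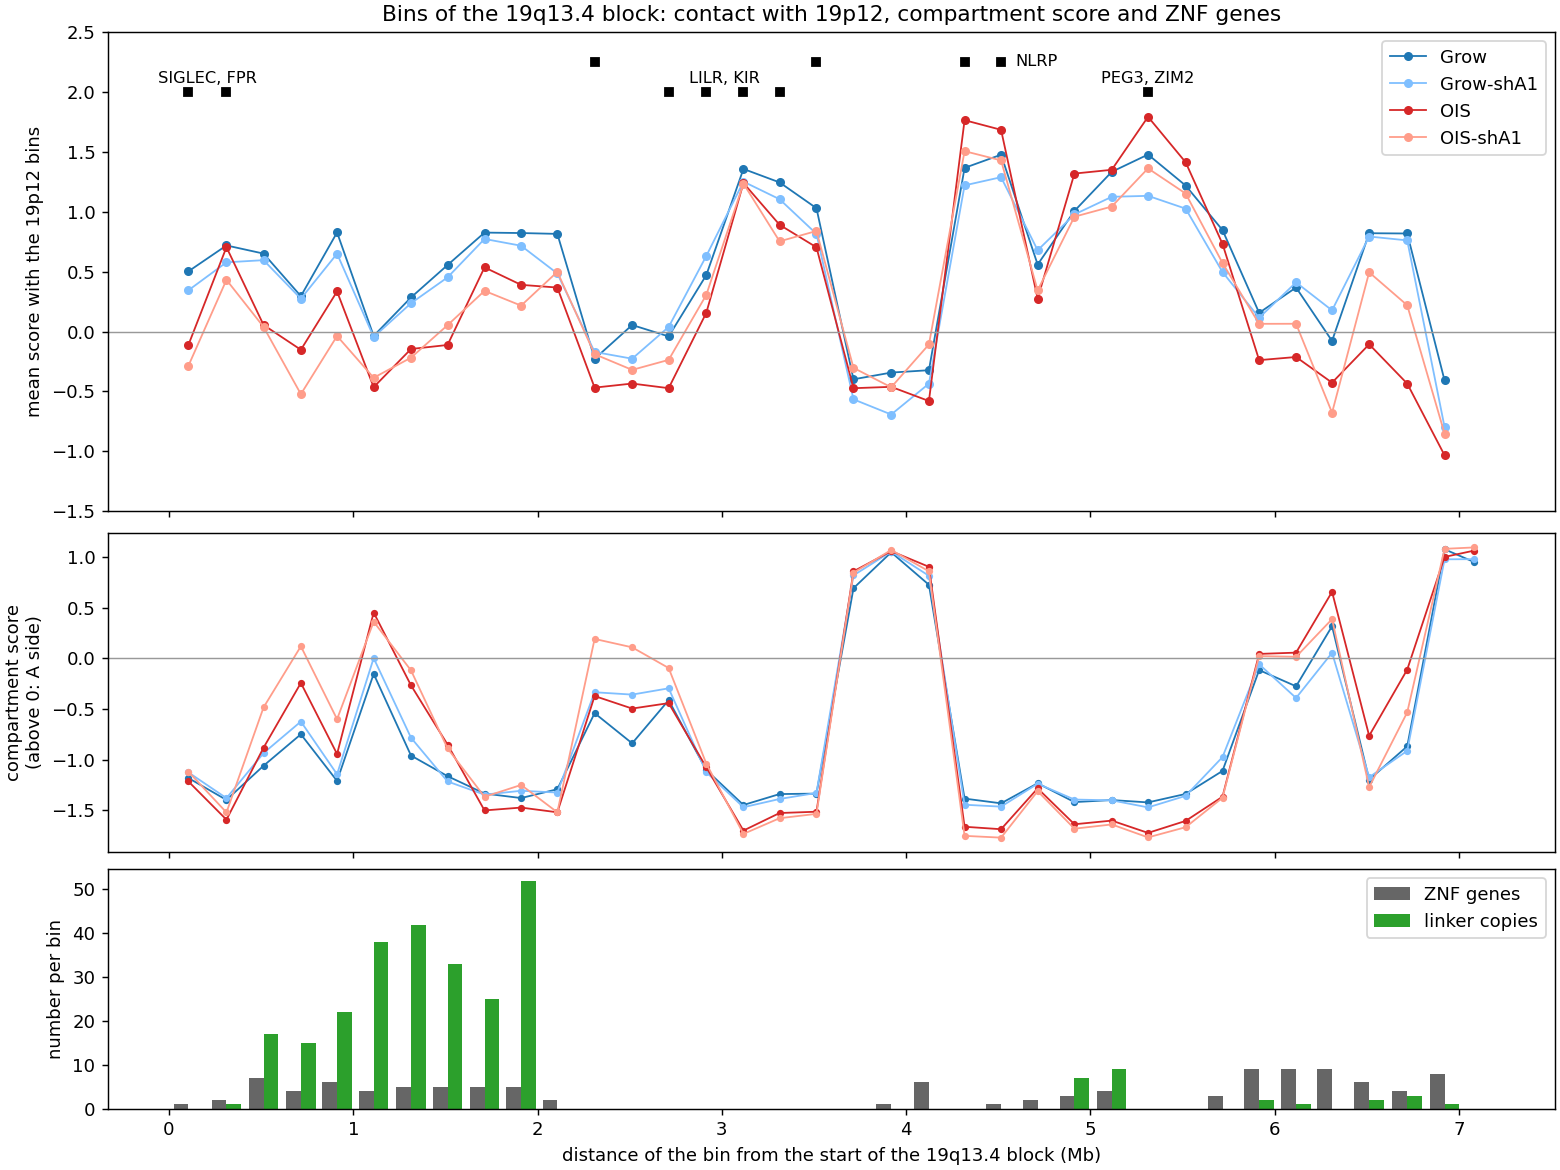
Along the 19q13.4 block (Mb from its start), the mean score of each bin with the 19p12 bins (top), its compartment score (middle) and its numbers of ZNF genes and linker copies (bottom), for the 4 maps. Squares mark bins with SIGLEC or FPR, LILR or KIR, NLRP, and PEG3 genes, and the OIS line lies above the Grow line at the NLRP9 and PEG3 bins and below it at both ends.

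At the telomeric end of 19q13.4 the values ran the other way. The bin of ZNF274 (chr19:58604070-58808670), with ZNF329, ZNF544 and ZNF8, had the largest difference of the block, at 0.82 in Grow, 0.76 in Grow-shA1, -0.44 in OIS and 0.22 in OIS-shA1 (21 pairs, SD 0.34 in Grow and 0.72 in OIS). ZNF274 is itself a KRAB zinc finger protein that binds the 3′ ends of ZNF genes and brings H3K9me3 to them. OIS minus Grow was -1.25 for this bin and OIS-shA1 minus Grow-shA1 was -0.54. The neighbouring bin, from ZNF814 to ZNF135, was at 0.82, 0.79, -0.11 and 0.49 (23 pairs). Both bins thus lay lowest in OIS and between OIS and the growing maps in OIS-shA1.

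The centromeric end of the block held most of the linker copies. ZNF613 and its neighbours ZNF649, ZNF350, ZNF615 and ZNF614 shared a bin at 0.65 in Grow, 0.60 in Grow-shA1, 0.055 in OIS and 0.039 in OIS-shA1. The bin of ZNF528 was at 0.83, 0.65, 0.33 and -0.037, and that of ZNF28 at 0.28, 0.24, -0.15 and -0.22. The bin of ZNF320, ZNF888 and ZNF816 had the third-largest difference, from 0.56 in Grow to -0.11 in OIS. The ZNF83 bin was already below 0 in Grow, at -0.037, -0.045, -0.46 and -0.39 (15 pairs). All 5 of these bins were lower in OIS than in Grow and in OIS-shA1 than in Grow-shA1. ZNF331, an imprinted gene, did not follow them in the hairpin maps, at 0.82 in Grow, 0.49 in Grow-shA1, 0.37 in OIS and 0.50 in OIS-shA1.

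Of the 16 bins of 19q13.4 that held a copy of the linker printed above, 14 were lower in OIS than in Grow and 16 of 16 were lower in OIS-shA1 than in Grow-shA1. Of the 19 bins with no copy, 15 and 9 were lower. Among all 164 bins of chromosome 19 that could be paired with 19p12, 12.8% were higher in OIS than in Grow. In OIS-shA1 16.5% were higher than in Grow-shA1. The counts of bins with a copy thus stand beside lower values for most of the chromosome. Their medians in Grow were 0.69 with a copy and 0.56 without, and in OIS -0.11 and 0.28. Of the other listed genes at the telomeric end, ZNF154 and ZNF671 shared a bin at -0.079, 0.18, -0.43 and -0.68 over 14 pairs, and ZNF304 was at 0.16, 0.11, -0.24 and 0.064 over 23 pairs.

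Across the 35 bins of 19q13.4, the contact with 19p12 in Grow ran opposite to the compartment score, described next (Pearson r = -0.86, Spearman rho = -0.92), and to GC content (r = -0.62, rho = -0.51). The number of ZNF genes per bin had r = -0.46 with the OIS-minus-Grow difference. Across the 24 bins of 19p12 these relations were not shared. There the contact with 19q13.4 in Grow had r = -0.099 with the compartment score and 0.54 with GC content. The number of ZNF genes had r = 0.41 with the OIS-minus-Grow difference in 19p12. These are descriptions across bins of the same maps. The bins are neighbours, share partner bins, and the compartment score comes from the same contacts. The order of the bins was largely kept between Grow and OIS (r = 0.91).

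The RAS difference of a bin without and with the hairpin comes from maps that share no library. Over the 35 bins of 19q13.4 the differences without and with it had r = 0.62 (rho = 0.67), and over the 24 bins of 19p12 r = 0.22 (rho = 0.33). Bins share their position, base composition and gene content in both comparisons. Over the 710 single pairs r was 0.16, and 56.5% of pairs had the same sign.

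Both blocks had less contact with the rest of chromosome 19 in the RAS maps. For 19p12 (2388 of 4490 pairs over 2 Mb apart were listed in all maps) the mean score was 0.47 in Grow, 0.48 in Grow-shA1, 0.086 in OIS and 0.10 in OIS-shA1 (SD 0.94 to 1.15). OIS minus Grow was -0.38 and OIS-shA1 minus Grow-shA1 was -0.38, and none of the 24 bins was higher in either comparison. For 19q13.4 (4229 of 6755 pairs) the means were 0.57, 0.46, 0.34 and 0.28 (SD 0.91 to 1.02), with RAS differences of -0.22 and -0.17. Over these pairs the RAS difference of 19p12 was larger than that of 19q13.4, with and without the hairpin.

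These values depend on the pairs that were listed. Between 19p12 and the rest 67.6% of pairs were listed in OIS, fewer than in Grow, and pairs with few contacts are the ones that go unlisted. With all pairs that each map listed, the Grow mean of 19p12 with the rest became -0.057 and OIS minus Grow -0.11, and with unlisted pairs at the lowest value of their map they were -0.22 and -0.53. With all listed pairs the RAS difference with the hairpin was -0.059 for 19p12, against -0.063 without and -0.065 with the hairpin for 19q13.4, so 19p12 was then no longer the larger in both. The direction of the RAS difference was kept, while the level in Grow turned sign.

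For all 249 bins of chromosome 19, 13.3% had a higher mean score with the bins outside the blocks in OIS than in Grow, against 2 of the 60 block bins, and 15.3% in OIS-shA1 than in Grow-shA1, against 1 of 60. The hairpin comparisons gave 37.3% of all bins and 23 of 60 block bins higher in OIS-shA1 than in OIS, and 28.1% and 16 of 60 in Grow-shA1 than in Grow, which are near the background. Pairs of bins outside both blocks also stood lower in OIS, by -0.15 on average (9582 pairs).

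The partner bins of 19p12 that held ZNF genes had more contact than those that did not, and a larger RAS difference. Partner bins with a ZNF gene (776 pairs) were at 0.75 in Grow, 0.73 in Grow-shA1, 0.23 in OIS and 0.16 in OIS-shA1. Partner bins without one (1612 pairs) were at 0.34, 0.36, 0.015 and 0.073. The RAS difference was -0.51 against -0.32 without the hairpin and -0.57 against -0.28 with it. For 19q13.4 the split was -0.30 against -0.19, and -0.33 against -0.11. By arm, 19p12 went from 0.64 in Grow to 0.016 in OIS with the short arm and from 0.37 to 0.13 with the long arm.

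The compartment score separates the active (A, above 0) from the inactive (B, below 0) chromatin of a chromosome by the pattern of its contacts. All 24 bins of 19p12 were B in all 4 maps, with medians of -1.31 in Grow, -1.38 in Grow-shA1, -1.43 in OIS and -1.54 in OIS-shA1. In 19q13.4 the number of A bins was 6 of 36 in Grow, 7 in Grow-shA1, 9 in OIS and 12 in OIS-shA1. Outside the blocks it was 94, 102, 108 and 114 of 189, so the count of A bins was higher in the same order there. The first component held 36.8% of the variance in Grow and 21.6% in OIS-shA1.

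The 3 bins of 19q13.4 that were B in Grow and A in OIS all held ZNF genes. The ZNF83 bin was at -0.15 in Grow, close to 0 in Grow-shA1, 0.45 in OIS and 0.36 in OIS-shA1. The bin of ZNF304, ZNF543 and ZNF547 was at -0.12, -0.058, 0.044 and 0.022, and that of ZNF773, ZNF549 and ZNF550 at -0.28, -0.39, 0.056 and 0.015. The latter values lie close to 0. Counts of bins that changed sign were near the background. Between Grow and OIS 3 of 60 block bins did, against 6.83% of chromosome 19 bins. The share was 9.54% of the 9476 bins of 17 chromosomes. The other 6 chromosomes were left out by a cut-off on the correlation of the score with gene number. Between OIS and OIS-shA1 the count was 3 of 60 (3.61% of chromosome 19 bins). It was 1 of 60 between Grow and Grow-shA1 (3.61%) and 5 of 60 between Grow-shA1 and OIS-shA1 (7.63%).

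Other bins moved further from 0 or towards it without a change of sign. The PEG3 and ZIM2 bin was at -1.42 in Grow, -1.47 in Grow-shA1, -1.72 in OIS and -1.77 in OIS-shA1, and the bin of NLRP9, NLRP11 and NLRP4 at -1.38, -1.44, -1.66 and -1.75. The ZNF274 bin was at -0.87, -0.91, -0.11 and -0.53, so it stood closest to the A side in OIS, as its contact with 19p12 stood lowest there. The bin of ZNF616, ZNF836, ZNF766 and ZNF480 was at -0.75, -0.62, -0.24 and 0.12. The PEG3 bin and this NLRP bin were more negative in both RAS maps than in Grow, and the ZNF274 bin less so. The lowest score outside the blocks also moved down, at -1.53 in Grow, -1.59 in Grow-shA1, -1.74 in OIS and -1.81 in OIS-shA1. The score was scaled to the same SD in each map, so such shifts are not particular to these bins. Among the other NLRP bins, that of NLRP12 (chr19:54193551-54400691) ran the other way, at -0.54, -0.33, -0.37 and 0.19.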

How the data were processed

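Hi-C maps of 4 conditions were used. The authors used HiC-Pro on hg19, took out artefacts, balanced the contacts by iterative correction, corrected them for distance and deposited 1 score per pair of bins. The deposited bin list gives coordinates in base pairs, with edges at HindIII sites. The files hold no read counts, and replicates were pooled before deposit.

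Bins with at least 50% of their pairs listed in each map were kept, and pairs listed in all 4 maps were averaged. Pairs over 2 Mb apart were called distal. Bin means needed 5 pairs, except that own-block means over 2 Mb were also given for single bins with fewer. The compartment score was the first component of the Pearson correlation matrix, with unlisted pairs at 0, oriented by the number of protein-coding genes. Genes came from GENCODE lifted to GRCh37. No test was possible. Named genes were those of the 3 highest and 3 lowest bins of each block by contact with the other block in Grow and by OIS minus Grow, plus a fixed list. The members and lists were chosen with earlier results of these data known. Alternatives changed the scaling, centring, average, distance limit, bins and treatment of unlisted pairs. The scripts were tested on simulated data (Python 3.11.15, numpy 2.4.6, pandas 2.3.3, scipy 1.17.1).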

Additional observations from a re-analysis of the deposited data

Results flagged for a closer look

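In 7 bins the difference between RAS and growing maps in the mean score with the other block had opposite signs without and with the hairpin. The difference between these values was not tested, since there was 1 map per condition. In 19p12 the bin of ZNF14, ZNF506 and ZNF253 was at 0.043 without and -0.20 with the hairpin, and that of ZNF724 and ZNF91 at 0.065 and -0.44. In 19q13.4 the ZNF331 bin was at -0.45 and 0.013, the bin from PPP1R12C to HSPBP1 at -0.074 and 0.26 (10 pairs), the ZNF628 bin at -0.12 and 0.23 (7 pairs), the bin of ZNF471, ZNF470, ZNF71 and ZNF835 at 0.017 and -0.082, and that of ZNF264, ZNF805 and ZNF460 at -0.11 and 0.076.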

How the results depend on the processing

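Of 467 alternative values for 55 results, 453 moved by less than 1 SD over the bins of the block, 11 moved further and 3 turned sign from a value over 1 SD. Of the 453, 422 kept their sign and 31 turned sign from a value within 1 SD of 0 (size up to 0.13), among them OIS minus Grow within 19q13.4, which went from 0.066 to -0.080 when divided by the SD at the same distance. Dividing scores by the SD at the same distance turned OIS minus Grow within 19p12 to -0.132 and took the value with the hairpin to 0.037. OIS minus Grow there was 0.425 when centred on pairs outside the blocks and 0.172 over 1 Mb, and Grow-shA1 minus Grow was -0.284 by the median. With all pairs listed in each map, 19p12 with the rest gave -0.106 for OIS minus Grow and -0.059 with the hairpin, and its score in Grow turned to -0.057. For 19q13.4 with the rest these differences were -0.063 and -0.065. With unlisted pairs at the lowest value, 19p12 with the rest gave -0.534 for OIS minus Grow and its score in Grow turned to -0.217, while the score of 19q13.4 with the rest in Grow was 0.129. With a component per arm, 7 bins of 19q13.4 were A in OIS-shA1. The causes were not tested. No paired analysis was possible because the maps pool the replicates, and for the same reason no replicate could be left out. The RAS maps listed fewer distal pairs, and the part of depth in this was not tested.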

Other observations

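The other ZNF clusters of chromosome 19 with at least 10 genes, chosen after values were seen, differed in their contact with the blocks. The cluster from ZNF557 to ZNF846 (16 genes) had a mean score with 19p12 of 1.38 in Grow, 1.40 in Grow-shA1, 0.93 in OIS and 0.76 in OIS-shA1 (173 of 192 pairs). The cluster from ZNF653 to ZNF791 (26 genes) was at 0.53, 0.51, -0.67 and -0.66 (100 of 168 pairs), a RAS difference of -1.20 without the hairpin and -1.17 with it. The cluster from ZNF565 to ZNF573 (26 genes) was at 0.80, 0.77, 0.37 and 0.084 with 19p12 and at 1.25, 1.34, 0.90 and 0.77 with 19q13.4. The cluster from ZNF575 to ZNF296 (24 genes) stood lowest with 19p12, at -0.48, -0.79, -1.24 and -1.09, over 40 of 168 pairs. All 4 clusters had less contact with both blocks in OIS than in Grow, as had most bins of chromosome 19. Of its bins, 12.8% were higher in OIS with 19p12 (164 bins) and 16.5% with 19q13.4 (200 bins). With 19q13.4 the OIS-minus-Grow difference of the cluster from ZNF557 to ZNF846 was only -0.067 (SD over pairs 0.73). In the order above, the other clusters were at -0.36, -0.35 and -0.68.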
